A study of Mus musculus with 6 samples.

Results

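ATP-binding cassette (ABC) transporters are membrane proteins that use ATP to move lipids, drugs, peptides, metal complexes and other small molecules across membranes. The 49 genes described here are those of 33924 gene names in the count table whose symbols follow the pattern of the mouse subfamilies ABCA to ABCG. Abca3, the lamellar body lipid transporter of surfactant, was left out, and ABC proteins with other symbols (Cftr, Tap1 and Tap2) were not members. Bulk RNA sequencing covered 3 libraries of urethane-induced lung tumour (replicates 1, 2 and 4) and 3 of normal lung (replicates 1, 2 and 3) from FVB/NJ mice, an inbred strain. The treated mice received urethane, a chemical carcinogen, at 1 g per kg by intraperitoneal injection, and the others saline. All tissue was taken at 6 months, the time point of harvest in the labels, which name no transgene and no engineered allele. The labels do not say how tumour was separated from the lung around it, nor whether separate animals gave the libraries. Sex-linked genes, given below, had a female pattern in tumour replicate 2 and a male pattern in tumour replicates 1 and 4. Tumour replicate 2 was therefore not from the same animal as those tumours. Whether the other libraries of a group came from separate animals is not known. The p-values rest on variation among libraries, and part of it may be technical.

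As background, full ABC transporters join a pair of membrane domains and a pair of ATP-binding domains in a single chain, while smaller members form dimers. ABCA and several ABCG proteins handle sterols and phospholipids, ABCB1, ABCC and ABCG2 proteins expel drugs and conjugated anions, ABCD proteins sit in peroxisomes or lysosomes, and ABCE and ABCF proteins lack membrane domains and act on ribosomes. In lung, these proteins take part in surfactant lipid storage, cholesterol export from alveolar macrophages and the efflux of inhaled compounds and glutathione conjugates.

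Libraries held 38996532 to 62336537 counted reads, of which 55567 to 116306 fell on the 49 genes. Tumour replicate 2 had 3359 CPM of Xist (CPM, reads scaled to a common library total after correction for composition), and the other 5 libraries at most 32.9 CPM. The Y-linked genes Ddx3y, Kdm5d, Eif2s3y and Uty were at 0.0539 to 0.216 CPM in tumour replicate 2 and at 37.6 to 171 CPM in the other 5. Tumour replicate 2 thus had the pattern of a female and the other 5 libraries that of males. Sex was mixed among the tumours only, and its part in the results was not tested. Of the markers of other lung cells, 10 of 10 endothelial, 9 of 10 fibroblast, 9 of 10 pericyte and smooth muscle, 7 of 7 club cell and 8 of 8 ciliated cell genes were lower in tumours, and 8 of 9 markers of alveolar type 2 cells (AT2, the surfactant-producing cells) were higher. Several of the ciliated and club cell genes, such as Foxj1, Dynlrb2 and Gabrp (6, 0 and 11 reads over the tumours), passed the low-count filter only through control lung. Their calls are not evidence of a change. Summed fibroblast markers ranged from 158 to 278 CPM in tumours and from 2382 to 2759 CPM in control lung, and endothelial markers from 283 to 405 CPM in tumours and from 4173 to 5629 CPM in control lung. The part that these cell types had in the results below was not tested. Over all genes tested, 18.1% were called higher and 23.8% lower in tumours. In such bulk samples, fewer cells of a type and less RNA per cell cannot be told apart.

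Most of the ABC genes that changed were lower in tumours. Of the 49 genes, 41 had enough reads to be tested, and 20 of these changed (edgeR quasi-likelihood test over all 20001 genes tested, Benjamini-Hochberg adjusted p under 0.05), which is 48.8% beside 42.0% of all genes tested. Higher in tumours were 4 of the 41, or 9.76%, beside 18.1% of all genes. Lower were 16 of the 41, or 39.0%, beside 23.8% of all genes. These 16 include Abcc6, which passed the low-count filter only through control lung. The 4 higher genes were Abcc4, Abcb8, Abce1 and Abcf2. The median log2 fold change of the tested members, tumour over control, was -0.59, and that of all genes tested was 0.01. Tumour and control libraries had no overlap in CPM for 25 of the 41, or 61.0%, beside 56.0% of all genes. Against a 2-fold threshold 11 of the 41 passed, beside 19.8% of all genes, and Abcc4 was the 1 of these that was higher in tumours. Scaled by total counts alone, 1 member was higher and 19 were lower, beside 2549 and 5033 of 20001 genes. The median of all genes then shifted by -0.116 on the log2 scale. Without tumour replicate 1, 7 of 42 members tested were higher, beside 4210 of 20308 genes. Without control replicate 1, 2 of 43 members tested were higher, beside 2766 of 20694 genes.

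**Figure D1:**
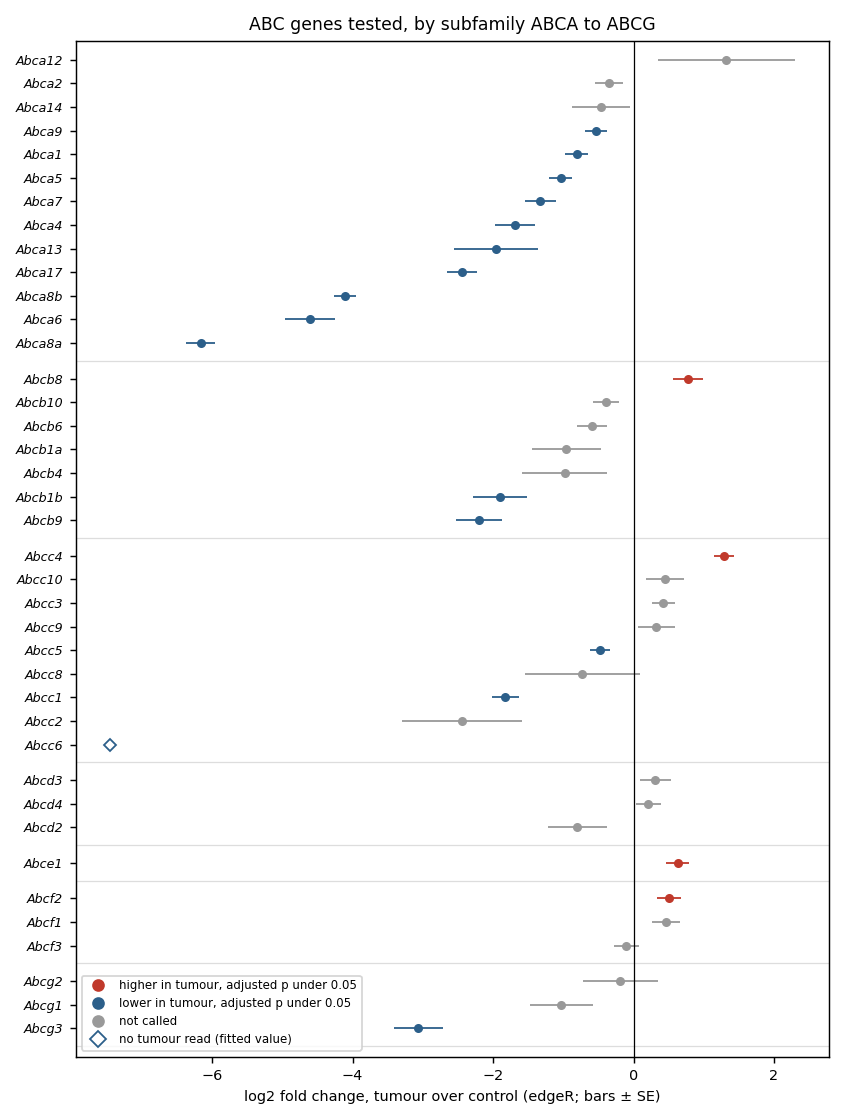
Log2 fold change of 39 of the 41 tested ABC genes (x axis, tumour over control, bars ± SE from the edgeR fit), grouped by subfamily from ABCA at the top to ABCG at the bottom. Red marks the 4 genes that were higher in tumours, blue the 16 that were lower and grey those not called; the open symbol is Abcc6, which had no tumour read.

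Summed over all 49 genes and expressed per kilobase of exon, the ABC signal was 236 ± 15.4 CPM per kilobase in tumours and 301 ± 20.9 CPM per kilobase in control lung (SD, n = 3 each). The make-up differed by role. The sterol and phospholipid export group was assigned broadly and takes in Abca1, Abca2, Abca4, Abca7 and Abca12. ABCA genes outside that group held 4.07% to 4.51% of this signal in the tumours and 18.6% to 21.2% in control lung. Ribosome and translation ATPases held 26.9% to 34.9% in the tumours and 15.1% to 19.5% in control lung. The summed signal of drug and xenobiotic efflux genes was 43.0 ± 6.66 CPM per kilobase in tumours and 45.1 ± 3.93 CPM per kilobase in control lung (SD, n = 3 each). Their share was 22.7% in tumour replicate 1 and 16.2% in both other tumours, against 12.9% to 16.1% in control lung. Per kilobase, the peroxisomal transporter gene Abcd3 had the highest level of the 49 genes in tumours (37.1 CPM per kilobase, against 29.9 in control lung) and the cholesterol exporter gene Abcg1 the highest in control lung (18.8 CPM per kilobase in tumours, 38.4 in control lung). Abca8a had 0.408 CPM per kilobase in tumours and 29.2 in control lung, where it ranked just below Abcd3.

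**Figure D2:**
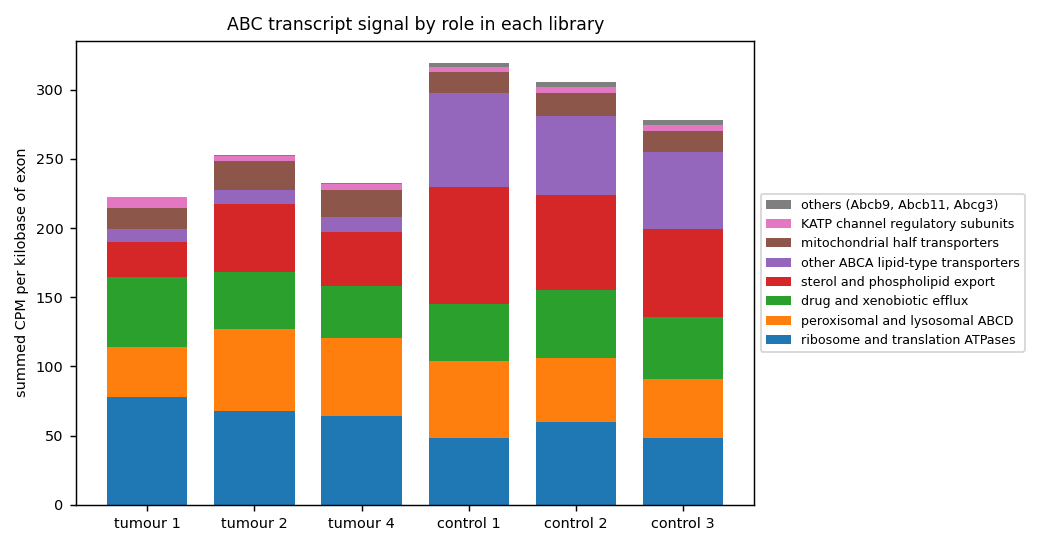
Summed CPM per kilobase of exon (y axis, linear from 0) of the 49 ABC genes in each of the 6 libraries, tumours left and controls right, stacked by role. The purple band of ABCA genes outside sterol and phospholipid export ran from 9.41 to 10.5 CPM per kilobase in tumours and from 55.8 to 67.8 in controls.

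A row of neighbouring ABCA genes on chromosome 11 held some of the deepest falls among the members (Abca8a, Abca6 and Abca8b) beside milder ones (Abca5 and Abca9). The 5 genes Abca5, Abca6, Abca9, Abca8a and Abca8b follow each other on the minus strand between positions 109793504 and 110199030 (mm9, the build of the annotation behind the table). They encode full transporters of a closely related branch of the subfamily, whose substrates are poorly defined; ABCA5 is found in lysosomes. All 5 were lower in tumours, but not alike. Their promoters are shown because the neighbours differed so much in the size of the fall. The 250 bases before the RefSeq start (GRCm38.p6, written 5′ to 3′ on the gene's strand) are given for the 4 with an entry in the RefSeq table, with matches to the motifs named below in capitals.
Abca5, chr11:110337717-110337966 (- strand): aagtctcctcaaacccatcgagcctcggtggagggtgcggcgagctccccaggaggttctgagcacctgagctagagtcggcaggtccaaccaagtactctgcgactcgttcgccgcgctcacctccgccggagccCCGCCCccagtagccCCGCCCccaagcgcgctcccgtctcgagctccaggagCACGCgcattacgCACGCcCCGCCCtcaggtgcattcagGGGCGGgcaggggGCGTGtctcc
Abca9, chr11:110168154-110168403 (- strand): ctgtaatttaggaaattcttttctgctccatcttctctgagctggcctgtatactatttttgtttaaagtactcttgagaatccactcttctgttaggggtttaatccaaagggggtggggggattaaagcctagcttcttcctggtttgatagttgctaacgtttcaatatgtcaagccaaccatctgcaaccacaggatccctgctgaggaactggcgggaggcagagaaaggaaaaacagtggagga
Abca8a, chr11:110095938-110096187 (- strand): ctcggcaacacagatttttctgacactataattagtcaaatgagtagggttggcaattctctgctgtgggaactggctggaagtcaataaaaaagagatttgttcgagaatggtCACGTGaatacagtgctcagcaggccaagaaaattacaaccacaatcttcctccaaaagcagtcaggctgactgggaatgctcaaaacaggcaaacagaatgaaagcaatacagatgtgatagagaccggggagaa
Abca8b, chr11:109995846-109996095 (- strand): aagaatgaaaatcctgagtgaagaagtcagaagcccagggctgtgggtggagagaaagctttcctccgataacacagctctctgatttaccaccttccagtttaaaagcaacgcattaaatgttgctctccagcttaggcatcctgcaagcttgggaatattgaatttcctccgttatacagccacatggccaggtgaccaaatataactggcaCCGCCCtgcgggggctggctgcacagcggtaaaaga

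The motifs were searched on both strands of the 250 bases before each start, and their shares are of all 32851 RefSeq windows of this length. The GC box, spelled GGGCGG, is present in 32.7% of them and the box named CCAAT in 33.8%. The TATA box was searched as TATAAA and is present in 12.4%. For the E-box the letters were CACGTG, with a share of 6.02%. The cAMP response element was searched as TGACGTCA and is present in 1.55%. The core of the xenobiotic response element was searched as GCGTG and is present in 28.2%. For the core of the antioxidant response element the letters were TGACNNNGC, with a share of 10.2%. The core of nuclear receptor sites was searched as AGGTCA and is present in 14.0%. Overlapping matches of different motifs were each counted. The Abca5 window held 4 GC boxes and 3 matches to GCGTG, had a GC content of 69.2% and a ratio of observed to expected CpG of 0.85. The windows of Abca8a, Abca8b and Abca9 had GC contents of 43.2%, 48.8% and 44.4% and CpG ratios of 0.35, 0.40 and 0.16. Abca8a held 1 E-box, Abca8b 1 GC box and Abca9 none of these motifs. The median CpG ratio was 0.63 over the 44 windows of 37 members in the table and 0.37 over all windows.

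Abca8a (chromosome 11, 109886948 to 109957292) had 2.12, 2.87 and 2.69 CPM in tumour replicates 1, 2 and 4, against 207, 179.6 and 163 CPM in control replicates 1, 2 and 3; values below follow the same order of libraries. The fitted log2 fold change was -6.16 ± 0.21 (SE; edgeR adjusted p = 3.19e-06, n = 3 per group). No tumour library came near the lowest control library. Abca8b (chromosome 11, 109793504 to 109857159) had 3.38, 3.38 and 3.02 CPM in tumours, against 58.7, 54.9 and 55.3 CPM in control lung, a log2 fold change of -4.11 ± 0.15 (edgeR adjusted p = 3.51e-06). Abca6 (chromosome 11, 110038134 to 110113090) had 0.294, 0.628 and 0.716 CPM in tumours, against 14.7, 12.9 and 12.2 CPM in control lung, a log2 fold change of -4.61 ± 0.36 (edgeR adjusted p = 4.56e-05). The groups were far apart for these genes, and among the tumours replicate 1 had the lowest Abca6 value, at least 1.5-fold below both others.

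Abca9, which lies between Abca6 and Abca8a (chromosome 11, 109962063 to 110029510), changed far less. It had 19.8, 18.7 and 23.4 CPM in tumours, against 31.5, 30.6 and 27.4 CPM in control lung, a log2 fold change of -0.53 ± 0.15 (edgeR adjusted p = 0.0244). The groups did not overlap, but the call was lost without tumour replicate 2, control replicate 1 or control replicate 2 (adjusted p = 0.0867, 0.0832 and 0.0824; 0.0288 to 0.0867 over the left-out libraries). The ratio of Abca8a to Abca9 within a library was 0.107, 0.154 and 0.115 in the tumours, against 6.57, 5.87 and 5.96 in control lung. Abca5 (chromosome 11, 110130683 to 110199030) had 53.5, 63.1 and 60.1 CPM in tumours, against 138, 99.6 and 125 CPM in control lung, a log2 fold change of -1.04 ± 0.17 (edgeR adjusted p = 0.00145). Shared sequence was small in this row: at most 4.87% of the 32-base words of a transcript, in Abca8b, also occur in another gene, and at most 3.2% of exon bases overlap exons of another name.

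**Figure D3:**
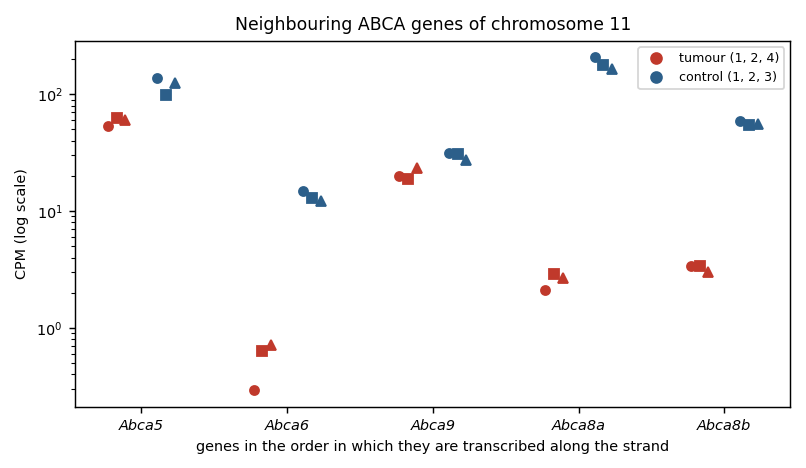
CPM (y axis, log scale) of the 5 neighbouring ABCA genes of chromosome 11 in each tumour library (red, left of each pair) and control library (blue, right), with genes in transcribed order along the x axis. Abca6, Abca8a and Abca8b were at 0.294 to 3.38 CPM in tumours and at 12.2 to 207 CPM in control lung, while Abca9 between them was at 18.7 to 23.4 CPM in tumours and 27.4 to 31.5 CPM in control lung; levels of different genes are not scaled for length here.

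Among the other ABCA genes outside sterol export, Abca17 fell next to a gene that rose. Abca17 (chromosome 17, 24401204 to 24487974, minus strand), a rodent lipid transporter gene that neighbours Abca3, had 6.81, 5.78 and 5.49 CPM in tumours, against 41.3, 28.4 and 28.5 CPM in control lung. Its log2 fold change was -2.44 ± 0.21 (edgeR adjusted p = 7.15e-05), and 4.11% of its 32-base words also occur in Abca3. Abca3 had 1311 to 1621 CPM in tumours and 560 to 624 CPM in control lung. The ratio of Abca3 to Abca17 was 203, 280.4 and 239 in the tumours, against 15.1, 19.7 and 20.4 in control lung. Abca13, which encodes a very long transporter, had 0.556, 2.17 and 0.434 CPM in tumours, against 3.83, 5.04 and 3.47 CPM in control lung, a log2 fold change of -1.96 ± 0.60 (edgeR adjusted p = 0.0294). Tumour replicate 2 was the highest tumour library for Abca13, and without it the log2 fold change was -3.04. The call for Abca13 was lost without tumour replicate 4 or any of control replicates 1, 2 and 3 (adjusted p = 0.065, 0.0639, 0.0969 and 0.0755; 0.000582 to 0.0969 over the left-out libraries). Abca14 averaged 1.148 ± 0.55 CPM in tumours and 1.58 ± 0.050 CPM in control lung and was not called (SD, n = 3 each).

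Of 10 genes placed with sterol and phospholipid export, 7 were tested, 3 (42.9%) fell and none rose, beside 23.8% and 18.1% of all genes. Abca1, which passes cholesterol and phospholipid from cells to apolipoprotein A-I, had 99.7, 129 and 99.5 CPM in tumours, against 175, 202 and 197 CPM in control lung. Its log2 fold change was -0.81 ± 0.16 (edgeR adjusted p = 0.00446), and every tumour library lay below every control library. Abca7, a related lipid transporter of phagocytes and other cells, had 15.9, 26.0 and 19.1 CPM in tumours, against 44.5, 47.0 and 61.9 CPM in control lung, a log2 fold change of -1.33 ± 0.22 (edgeR adjusted p = 0.00185). Abca4, known for clearing retinoid-lipid adducts in photoreceptors, had 2.08, 2.53 and 3.93 CPM in tumours, against 9.34, 8.87 and 9.26 CPM in control lung, a log2 fold change of -1.69 ± 0.28 (edgeR adjusted p = 0.00178). Abca2, an endosomal and lysosomal lipid transporter, had 45.0, 51.0 and 34.6 CPM in tumours, against 49.0, 49.5 and 67.7 CPM in control lung, and these overlapped (edgeR adjusted p = 0.20).

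Abcg1, which exports cholesterol to high-density lipoprotein and is abundant in alveolar macrophages, had 30.9, 108 and 90.7 CPM in tumours, against 220.2, 143 and 105 CPM in control lung. The groups overlapped, since tumour replicate 2 stood above control replicate 3, and the log2 fold change of -1.03 ± 0.45 was not called (edgeR adjusted p = 0.101). The summed CPM of 9 alveolar macrophage markers was 285, 1845 and 1229 in the tumours, against 1558, 695 and 394 in control lung. Within each group, libraries fell in the same order for Abcg1 and for these markers. The order was not particular to them. It was shared by the summed AT2 markers (27050, 61880 and 48000 CPM in tumours, against 16070, 10490 and 9545 in control lung). Summed markers of other monocytes and macrophages also shared it. The part of any of these cells in the spread was not tested. Of the 9 alveolar macrophage markers, 1 rose and 2 fell, beside 18.1% and 23.8% of all genes. Abca12, which loads lipid into skin lamellar granules, had 1.52, 0.323 and 0.0868 CPM in tumours, against 0.299, 0.410 and 0.0609 CPM in control lung, and was not called. Abcb4, the phosphatidylcholine exporter of bile, had 40 reads over the tumours and 83 over control lung and was not called either. Abcg4, Abcg5 and Abcg8, of which the last 2 form the sterol exporter of liver and gut, had 19 to 24 reads over the tumours and 20 to 31 over control lung and were not tested.

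Drug efflux genes moved in both directions. Of 12 such genes, 10 were tested, 1 rose and 4 fell, beside 18.1% of all genes higher and 23.8% lower. The 4 that fell include Abcc6, which passed the low-count filter only through control lung, so its call is not evidence of a fall. Abcc4 (chromosome 14, 118881914 to 119105441), which encodes MRP4, an exporter of cyclic nucleotides, prostaglandins and conjugated anions, had the largest rise of all members called. It had 54.9, 59.3 and 60.4 CPM in tumours, against 22.1, 25.9 and 23.6 CPM in control lung. Its log2 fold change was 1.29 ± 0.14 (edgeR adjusted p = 0.000181), the tumour libraries lay close together, and the call held in all 14 alternatives. Abcc1 (chromosome 16, 14361651 to 14475830), which encodes MRP1, an exporter of glutathione conjugates and leukotriene C4, went the other way. It had 14.4, 17.5 and 14.6 CPM in tumours, against 42.9, 61.8 and 60.2 CPM in control lung, a log2 fold change of -1.82 ± 0.19 (edgeR adjusted p = 0.00016). The ratio of Abcc4 to Abcc1 was 3.81, 3.38 and 4.13 in the tumours, against 0.514, 0.419 and 0.392 in control lung, so that the order of this pair was turned round in every library.

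The RefSeq table has a pair of start sites for Abcc4, and the CpG-rich window of that pair is shown because Abcc4 is the member with the largest called rise. It has a GC content of 72.0% and a CpG ratio of 1.08, and holds 3 GC boxes, 1 E-box, 2 matches to GCGTG and 1 to TGACNNNGC, all in capitals.
Abcc4, chr14:118706220-118706469 (- strand): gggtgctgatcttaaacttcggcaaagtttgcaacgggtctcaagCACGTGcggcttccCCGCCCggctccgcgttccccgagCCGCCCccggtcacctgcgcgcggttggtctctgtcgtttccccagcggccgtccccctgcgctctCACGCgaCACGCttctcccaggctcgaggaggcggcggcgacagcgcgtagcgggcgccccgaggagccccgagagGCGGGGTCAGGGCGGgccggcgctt

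Abcc5, which encodes MRP5, an exporter of cyclic nucleotides and other organic anions, had 83.2, 101 and 80.4 CPM in tumours, against 125, 120.3 and 124 CPM in control lung, a log2 fold change of -0.48 ± 0.14 (edgeR adjusted p = 0.0271). Its call was lost without tumour replicate 4 or any of control replicates 1, 2 and 3 (adjusted p = 0.109, 0.0777, 0.0759 and 0.0884; 0.0226 to 0.109 over the left-out libraries). Abcc3, which encodes MRP3, an exporter of glucuronides, had 60.0, 75.6 and 67.9 CPM in tumours, against 42.9, 56.8 and 51.8 CPM in control lung. The groups of Abcc3 did not overlap, and the log2 fold change of 0.42 ± 0.16 missed the threshold (edgeR adjusted p = 0.0665). Without tumour replicate 1 Abcc3 was called, at 0.54 (adjusted p = 0.0168; 0.0168 to 0.205 over the left-out libraries). Abcc10 averaged 12.02 ± 4.25 CPM in tumours and 8.84 ± 1.28 CPM in control lung and was not called (SD, n = 3 each). Abcc6, which promotes ATP release from liver cells, had no read in the tumours and 65 in control lung. Against 3 counts over the tumour group, that is at least 23.2-fold lower in tumours, and 14.5- to 24.9-fold with any library left out. Abcc6 passed the low-count filter only through control lung, so it had to differ. Its place among the called members is therefore not evidence of a fall. Abcc2, the bile canalicular anion exporter, had 18 reads over the tumours and 94 over control lung, and its log2 fold change of -2.44 ± 0.86 just missed the threshold (edgeR adjusted p = 0.0501). It too passed the low-count filter only through control lung. Neither this value nor a call with a library left out is therefore evidence of a fall. Abcc2 was called without tumour replicate 2, at -1.84, and without tumour replicate 4, at -3.58 (adjusted p = 0.047 and 0.0211; 0.0211 to 0.14 over the left-out libraries).

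Abcb1a and Abcb1b are the mouse genes of P-glycoprotein, the multidrug efflux pump of barrier tissues. They share sequence, with 24.4% and 26.5% of their 32-base words occurring in another gene, so reads may be missing from either. Abcb1b had 2.63, 2.15 and 0.933 CPM in tumours, against 5.95, 8.25 and 7.23 CPM in control lung, a log2 fold change of -1.90 ± 0.39 (edgeR adjusted p = 0.00491). Abcb1a had 31.8, 9.93 and 7.42 CPM in tumours, against 28.4, 35.8 and 31.3 CPM in control lung. Tumour replicate 1 stood at the level of control lung and the other tumours well below it, so that Abcb1a was not called with all libraries (log2 fold change -0.96 ± 0.49, edgeR adjusted p = 0.154). Without tumour replicate 1 it was called, at -1.84 (adjusted p = 8.39e-05; 8.39e-05 to 0.321 over the left-out libraries). Abcg2, the breast cancer resistance protein and a marker of side population cells, had 62.1, 12.7 and 17.2 CPM in tumours, against 33.8, 42.0 and 29.2 CPM in control lung. Its tumour replicate 1 lay above all controls and its tumour replicates 2 and 4 below all of them, and Abcg2 was not called (log2 fold change -0.19 ± 0.53, edgeR adjusted p = 0.804). Without tumour replicate 1 the log2 fold change of Abcg2 was -1.20 (adjusted p = 0.00138; 0.00138 to 0.977 over the left-out libraries). Abcc12 had 9 reads over the tumours and 41 over control lung, and Abcb5, a transporter gene known from melanoma, had none in the tumours and 2 in control lung.

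Tumour replicate 1 stood at least 1.5-fold above both other tumours for 6 members and at least 1.5-fold below both for 6, of 39 with reads in every tumour, beside 13.7% and 13.9% of all genes. The other members above were Abcc9, Abcf1, Abcc10 and Abca12. For tumour replicate 2 the counts were 2 above and 0 below, beside 5.87% and 4.25% of all genes. For tumour replicate 4 they were 2 and 4, beside 3.35% and 5.38%. In tumour replicate 1, members stood apart about as often as all genes did. The summed epithelial markers were 1550, 1163 and 1008 CPM in tumours 1, 2 and 4, the AT2 markers 27050, 61880 and 48000 CPM, and the endothelial markers 297, 405 and 283 CPM. The part of these in the spread between tumours was not tested.

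**Figure D4:**
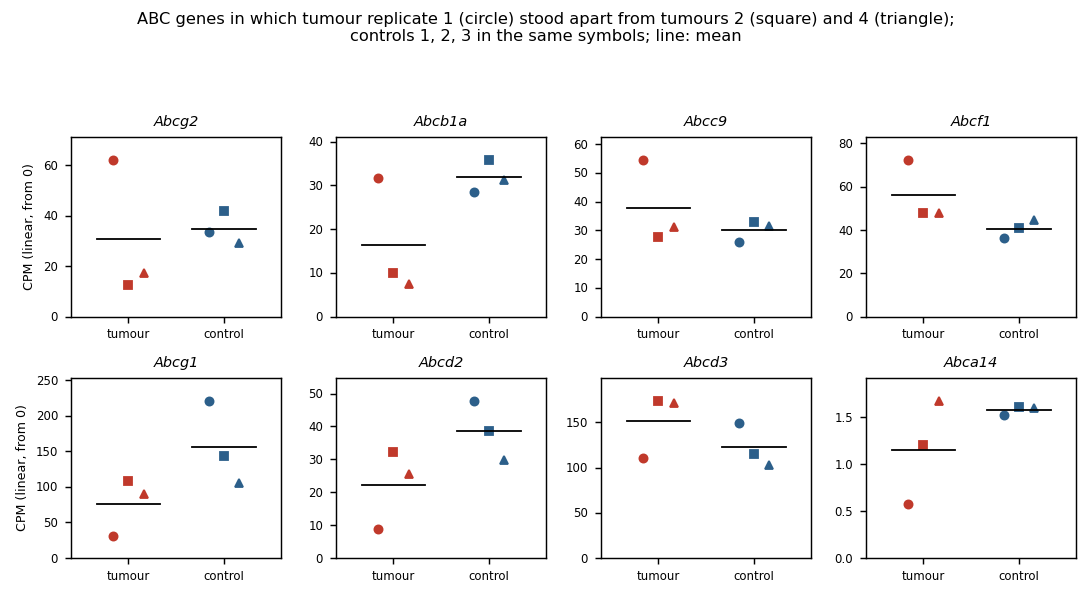
CPM (y axes, linear from 0) of 8 ABC genes in tumours (red, left) and controls (blue, right), 1 symbol per library with the group mean as a line. In the upper row tumour replicate 1 (circle) was above both other tumours, and in the lower row below them, as for Abcg2 at 62.1 CPM against 12.7 and 17.2 CPM in the other tumours.

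ATP-sensitive potassium channels pair a pore subunit with a regulatory ABCC subunit, SUR1 from Abcc8 or SUR2 from Abcc9. Abcc9, expressed in vascular smooth muscle and pericytes, had 54.4, 27.5 and 31.3 CPM in tumours, against 25.9, 33.03 and 31.6 CPM in control lung, and was not called (log2 fold change 0.32 ± 0.26, edgeR adjusted p = 0.361). Among 10 pericyte and smooth muscle markers, 9 fell and 1 rose, and their sum was 212 to 253 CPM, against 901 to 1164 CPM in control lung. The marker that rose was Rgs5, at 108 to 125 CPM in tumours and 7.82 to 9.07 CPM in control lung. Its log2 fold change was 3.79 ± 0.155 (edgeR adjusted p = 4.97e-06). The part of these markers in the Abcc9 values was not tested. Kcnj8, the pore partner of Abcc9, had 4.87, 1.04 and 1.17 CPM in tumours, against 2.09, 2.55 and 2.76 CPM in control lung, and was likewise highest in tumour replicate 1 (edgeR adjusted p = 0.944). Abcc8 averaged 0.474 ± 0.392 CPM in tumours and 0.791 ± 0.337 CPM in control lung (SD, n = 3 each), and neither it nor the other pore gene, Kcnj11, was called.

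The genes that rose, other than Abcc4, belong to the mitochondrial and the translation groups. Abce1 (chromosome 8, 82207341 to 82235639), whose product splits ribosomes after termination, had 111, 112 and 109.9 CPM in tumours, against 74.3, 83.2 and 58.3 CPM in control lung, a log2 fold change of 0.63 ± 0.16 (edgeR adjusted p = 0.0147). Abcf2, a cytosolic ATPase of the family that acts in translation, had 49.4, 42.1 and 37.9 CPM in tumours, against 27.5, 35.7 and 27.7 CPM in control lung, a log2 fold change of 0.51 ± 0.17 (edgeR adjusted p = 0.0434). The groups of both genes did not overlap, but scaled by total counts alone neither passed (adjusted p = 0.0661 for Abce1 and 0.212 for Abcf2; up to 0.0431 for Abce1 and 0.138 for Abcf2 over the left-out libraries). Abcf2 lost its call without tumour replicate 2, control replicate 1 or control replicate 3 (adjusted p = 0.0764, 0.138 and 0.107). Abcf1, which takes part in translation initiation, had 72.3, 48.0 and 47.9 CPM in tumours, against 36.3, 41.0 and 44.5 CPM in control lung, and was not called (edgeR adjusted p = 0.0926). Abcf3 had 43.8, 38.4 and 34.5 CPM in tumours, against 34.1, 50.1 and 40.8 CPM in control lung (edgeR adjusted p = 0.689).

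Of 14 other genes of ribosome release, rescue and initiation factor recycling that were tested, 6 rose and 1 fell, beside 18.1% and 23.8% of all genes. Eif2ak4, the GCN2 kinase gene, rose by 0.88 ± 0.13, Eif2s1, an eIF2 subunit, by 0.89 ± 0.17, and Gspt1, the release factor eRF3a that works just before ABCE1, by 0.59 ± 0.13 on the log2 scale (edgeR adjusted p = 0.000951, 0.00407 and 0.00739). The median of these 14 was 0.42 on the log2 scale. Their sum was 718 to 789 CPM in tumours and 509 to 534 CPM in control lung.

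The Abce1 window, shown as an example of a member that rose within a narrow range in all tumours, holds 1 cAMP response element match and 1 CCAAT match on the other strand (ATTGG), both in capitals.
Abce1, chr8:79711741-79711990 (- strand): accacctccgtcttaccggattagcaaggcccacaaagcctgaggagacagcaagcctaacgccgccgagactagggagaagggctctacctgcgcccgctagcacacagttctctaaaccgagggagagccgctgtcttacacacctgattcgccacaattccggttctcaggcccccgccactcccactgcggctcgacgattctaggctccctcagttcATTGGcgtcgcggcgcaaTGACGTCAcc

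Of 4 mitochondrial transporters, Abcb8 rose and none fell, beside 18.1% and 23.8% of all genes. Abcb8 (chromosome 5, 23899481 to 23915872), of the inner mitochondrial membrane, had 19.1, 14.7 and 13.4 CPM in tumours, against 7.66, 9.59 and 10.4 CPM in control lung, a log2 fold change of 0.77 ± 0.21 (edgeR adjusted p = 0.0183). It lost the call without control replicate 1 or 2 (adjusted p = 0.0688 and 0.0524; 0.018 to 0.0688 over the left-out libraries) and scaled by total counts alone (adjusted p = 0.083). Abcb10, linked to haem synthesis, had 13.7, 18.5 and 17.1 CPM in tumours, against 18.2, 23.7 and 22.6 CPM in control lung, and overlapped (edgeR adjusted p = 0.128). Abcb6, a porphyrin transporter, averaged 6.88 ± 0.94 CPM in tumours and 10.4 ± 1.51 CPM in control lung (SD, n = 3 each; edgeR adjusted p = 0.0537), and 68.4% of its 32-base words also occur in the gene model Gm29253. Without tumour replicate 1 Abcb6 was called, at -0.67 (adjusted p = 0.0205; 0.0205 to 0.179 over the left-out libraries). Of 20 genes of haem and iron-sulphur synthesis, 5 rose and 2 fell, beside 18.1% and 23.8% of all genes. Cpox, coproporphyrinogen oxidase, rose by 3.08 ± 0.27, and Slc25a37, the mitochondrial iron importer mitoferrin-1, by 2.75 ± 0.19, while Alas1, the entry enzyme of haem synthesis, fell by 1.48 ± 0.21 on the log2 scale (edgeR adjusted p = 7.68e-05, 3.16e-05 and 0.00088).

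None of the 4 ABCD genes was called with all libraries. Abcd3, which encodes the peroxisomal membrane protein PMP70, had 111, 173 and 171 CPM in tumours, against 149, 115 and 103 CPM in control lung (edgeR adjusted p = 0.304), and was called as higher without tumour replicate 1, at 0.52 (adjusted p = 0.0453; 0.0453 to 0.557 over the left-out libraries). Abcd2, which carries very long-chain fatty acids into peroxisomes, had 8.87, 32.4 and 25.6 CPM in tumours, against 47.6, 38.7 and 29.9 CPM in control lung (edgeR adjusted p = 0.163). Within each group its libraries fell in the same order as Abcg1 and the summed alveolar macrophage, other macrophage and AT2 markers given above. For both genes tumour replicate 1 was the lowest tumour, and the groups overlapped. Abcd4, the lysosomal cobalamin transporter, averaged 9.47 ± 0.33 CPM in tumours and 8.19 ± 0.43 CPM in control lung (SD, n = 3 each; edgeR adjusted p = 0.38). Of 20 genes of peroxisomal fatty acid oxidation and peroxisome assembly, 4 rose and 4 fell, with Hacl1, a lyase of alpha-oxidation, at -1.56 ± 0.21, Pex11a, of peroxisome division, at 1.80 ± 0.25, and the thiolase Acaa1a at 1.08 ± 0.17 on the log2 scale (edgeR adjusted p = 0.000635, 0.000651 and 0.00144). Of 8 cobalamin genes, 2 rose and 1 fell. For this list and the peroxisomal list, the shares over all genes were 18.1% higher and 23.8% lower, and the peroxisomal counts were close to them. The receptor gene Cd320 rose by 1.49 ± 0.35, Mmachc by 0.80 ± 0.26, and Lmbrd1, whose product works with ABCD4 at the lysosome, fell by 0.62 ± 0.21 on the log2 scale (edgeR adjusted p = 0.0095, 0.0385 and 0.0411).

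The remaining called members fell. Abcb9, a lysosomal peptide transporter, had 1.21, 1.38 and 0.803 CPM in tumours, against 4.92, 4.16 and 6.64 CPM in control lung, a log2 fold change of -2.21 ± 0.33 (edgeR adjusted p = 0.00102). Abcg3, a rodent member of unclear substrate, had 0.948, 1.65 and 0.694 CPM in tumours, against 8.50, 9.54 and 9.68 CPM in control lung, a log2 fold change of -3.07 ± 0.35 (edgeR adjusted p = 0.000259). The groups of both genes were well apart. Abcb11, the bile salt export pump, had 4 reads over the tumours and 16 over control lung. Abca15 had 13 reads over the tumours and none in control lung, and Abca16 had none in the tumours and 4 in control lung; these 3 genes were not tested.

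**Figure D5:**
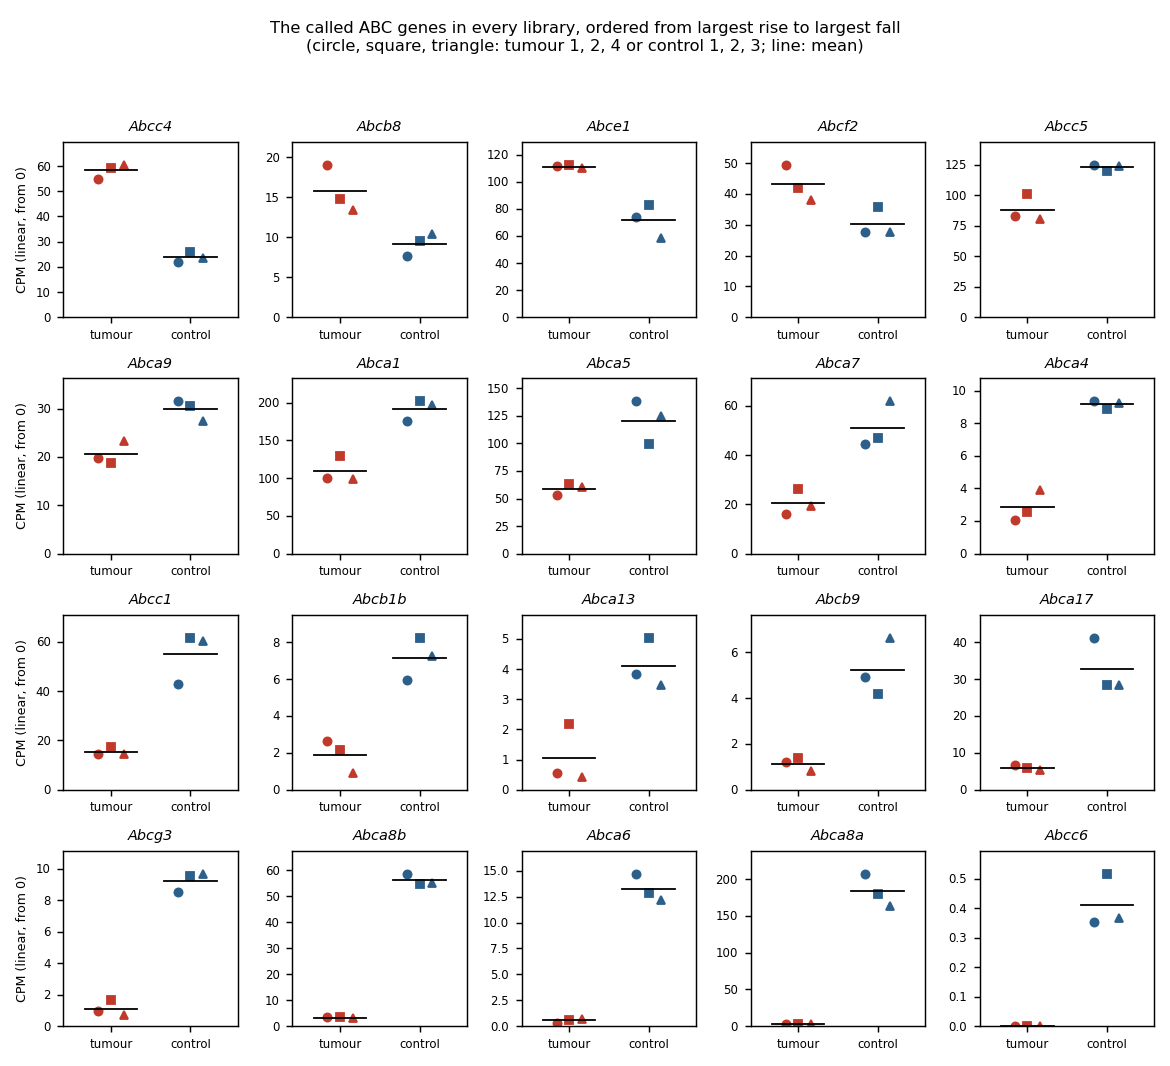
CPM (y axes, linear from 0) of the 20 called ABC genes in tumours (red, left) and controls (blue, right), 1 symbol per library with the group mean as a line, ordered from the largest rise (Abcc4) to the largest fall. In each of the 20 panels the tumour and control libraries do not overlap, with Abca8a at 2.12 to 2.87 CPM in tumours and 163 to 207 CPM in control lung.

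Genes that feed or control these transporters did not all move the same way. The counts of each list stand beside 18.1% of all genes tested that rose and 23.8% that fell. Of 18 genes of nuclear receptors and other regulators, 3 rose and 3 fell. Nfe2l2, the NRF2 factor of the antioxidant response, rose by 0.89 ± 0.16, Nr3c1, the glucocorticoid receptor gene, fell by 0.62 ± 0.15, and Rxrg, a retinoid X receptor gene, had 6 reads over the tumours and 92 over control lung (edgeR adjusted p = 0.00261, 0.00963 and 0.00347). Of 14 cholesterol efflux partners tested, 5 rose and 4 fell. Apoc1, an apolipoprotein gene, rose by 4.80 ± 0.42, Apoa1, the acceptor for ABCA1, had 128 reads over the tumours and 4 over control lung, and Pltp, the phospholipid transfer protein gene, fell by 3.62 ± 0.20 on the log2 scale (edgeR adjusted p = 7.75e-05, 0.000484 and 1.39e-05). Of 10 genes of glutathione and leukotriene supply, 3 rose and 1 fell: Gclc, of glutathione synthesis, rose by 0.81 ± 0.16, Ggt5, which cleaves leukotriene C4, by 1.54 ± 0.23, and the cystine importer gene Slc7a11 by 1.31 ± 0.35 on the log2 scale (edgeR adjusted p = 0.00426, 0.000969 and 0.0166).

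Most organic anion uptake carriers tested fell, with a median log2 fold change of -2.39, while organic cation and multidrug carriers were mixed. Counts below stand beside 18.1% of all genes tested that rose and 23.8% that fell. Of 8 organic anion carriers tested, of 14 listed, 1 rose and 7 fell, with the anion carrier gene Slco4c1 at 2.31 ± 0.22, Slco3a1 at -2.36 ± 0.23 and Slco5a1 at -4.38 ± 0.47 on the log2 scale (edgeR adjusted p = 0.000114, 0.000121 and 0.000186). The 7 that fell include Slco1a5 and Slco1c1, with 4 and 2 reads over the tumours and 110 and 109 over control lung. They passed the low-count filter only through control lung and enter the median, but their calls are not evidence of a fall. Of 9 organic cation and multidrug carriers tested, of 11 listed, 2 rose and 4 fell. Slc15a2, a peptide carrier gene, rose by 1.81 ± 0.19 on the log2 scale, Slc22a3, an organic cation carrier gene, had 22 reads over the tumours and 890 over control lung, and Slc47a1, a multidrug and toxin extruder gene, had no read over the tumours and 508 over control lung (edgeR adjusted p = 0.000172, 0.0011 and 0.000101). Among ABC proteins named otherwise, Cftr, the chloride channel of airway epithelium, had 0.196, 0.611 and 0.0434 CPM in tumours, against 79.4, 47.0 and 42.0 CPM in control lung, a log2 fold change of -7.58 ± 0.67 (edgeR adjusted p = 7.66e-05). Slc22a3, Slc47a1 and Cftr passed the low-count filter only through control lung, so their adjusted p and calls are not evidence of a change. The peptide transporter genes Tap1 and Tap2 were not called (edgeR adjusted p = 0.455 and 0.305).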

How the data were processed

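Per the labels' protocols, total RNA of lung or lung tumour was sequenced by standard Illumina methods. The deposited values are raw counts for each gene name. They were made by the authors, per the file headers, with featureCounts 1.6.5 on GENCODE vM1 exons, assigning a read to every name it overlaps, with no strand option. Named in the submitters' processing notes are STAR, limma, edgeR, R 3.6.0 and the builds GRCm38 and mm9. Coordinates of the deposited table are those of its mm9 annotation. Alignment settings were not given in the sources used here. A depth of 38996532 to 62336537 reads per library puts 3 counts at 0.0481 to 0.0769 CPM before composition scaling. This floor and the Abcc6 bound cover counting error only.

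Counts were tested with edgeR 4.0.16 (R 4.3.3): filterByExpr with a minimum count of 10, TMM scaling and the quasi-likelihood F test with group as the only term, on all 20001 genes that passed. Standard errors come from the F statistic. The fit was tested on simulated data. A member or listed gene that passed the filter only through the group where it is high had to differ. Such genes include Abcc2, Abcc6, Apoa1, Cftr, Foxj1, Rxrg, Slc22a3, Slc47a1, Slco1a5 and Slco1c1. The adjusted p and call of such a gene are not evidence of a change. Alternatives were DESeq2 1.42.0, limma-voom (limma 3.58.1), changed scalings, changed low-count filters, a test against a 2-fold change, a replicate block and each library left out. No replicate pair agreed within sampling noise, with chi-square values of 63.2 to 277 per degree of freedom. Shared sequence was counted in 32-base words of GENCODE M21 transcripts, and promoters are RefSeq's (GRCm38.p6).

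The members and lists were chosen with earlier results of these data known. All counts cover the 49 members, of which 2 are not reported here by name. Values in every library are given for the called members (at most 24) whose mean log2 CPM was 0 or more, the highest member per kilobase of each subfamily, and members not called whose mean log2 CPM was 4 or more, and companion genes are the 3 with the smallest p in each list. The promoter windows shown, the within-library ratios and the comparison of tumour libraries were chosen after the values were seen.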

Additional observations from a re-analysis of the deposited data

How the results depend on the processing

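Of the 20 called members, 9 kept the call in every alternative that could be run (13 for Abcc6, which fails the stricter filter, and 14 for the others): Abca4, Abca6, Abca8a, Abca8b, Abca17, Abcc1, Abcc4, Abcc6 and Abcg3. None reversed. Some members that were not called passed under other tools or settings: Abcc2 with DESeq2, limma-voom, total counts and no filter (adjusted p = 0.0326, 0.0267, 0.0378 and 0.0459), Abcb6 with DESeq2, limma-voom, RLE scaling and the stricter filter (0.0195, 0.0451, 0.0492 and 0.0468), and Abcg1 with DESeq2 and total counts (0.0485 and 0.0372). Abcc2 and Abcc6 passed the low-count filter only through control lung, so their calls in the filtered settings are not evidence of a fall. That Abcc6 kept its call in those settings therefore adds nothing to it. Scaling by total counts left 1 member higher, beside 2549 of 20001 genes. The test against a 2-fold change called 3965 genes (1056 higher and 2909 lower) and 11 members (1 higher and 10 lower). With each library left out, 6421 to 9436 genes were called, 2536 to 4210 higher and 3870 to 5226 lower, and 16 to 26 members, 2 to 7 higher and 13 to 19 lower. The signs of 4 members that were not called changed without 1 library: Abca12 to -0.27 (to 1.90 at the other end of the range) and Abcc9 to -0.01 (to 0.51) without tumour replicate 1, Abcg2 to 0.19 and 0.10 (down to -1.20) without tumour replicates 2 and 4, and Abcf3 to 0.06 (down to -0.22) without control replicate 2. The ABCC median log2 fold change of -0.48 became 0.35 when genes needed 1 CPM in 3 libraries, which removes Abcc2, Abcc6 and Abcc8. With Abcc6 at its bound the medians of all members and of ABCC were unchanged, at -0.59 and -0.48. Where a cause is not named, the cause was not tested.

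Replicate numbers 1 and 2 occur in both groups, but the labels do not say that they mark a shared animal or batch, and deviations from the group means correlated at -0.196 for number 1 and -0.009 for number 2 across 20001 genes. The replicate block left 1 residual degree of freedom and called 3641 genes (1092 higher and 2549 lower) and 10 members (1 higher and 9 lower). Depth limits the 8 members not tested, with at most 41 reads over a group.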
